A study of Mus musculus with 3 samples.

Results

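The chromatin around 6 genes of the LIF receptor and Stat3 pathway (Lifr, Il6st, Jak1, Stat3, Socs3 and Gbx2) was compared in 3 ATAC-seq peak lists from mouse embryonic stem cells. ATAC-seq marks open chromatin by the places where the Tn5 transposase can insert sequencing adapters. A peak was counted with a gene when its midpoint lay in the gene body or within 50 kb of it, and overlapping peaks of the 3 lists were merged into regions. This gave 80 of the 130664 regions of the whole series, and each of the 6 genes had some. The rule for the members used gene name and position and no peak score, but it was set with earlier results of these data known.

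All 3 lines were derived from CGR8 mouse embryonic stem cells. Cells of line SES4.1 expressed Halo-Sox2, the transcription factor Sox2 joined to the self-labelling Halo tag, after 300 ng/mL doxycycline for 20 h. Cells of line SES5.1 expressed Halo-Sox2a, whose difference from Halo-Sox2 the labels leave undescribed, after 70 ng/mL doxycycline for 20 h. The Control line, SES11, carried no inducible transgene, and the labels name no doxycycline dose, dye or sort for it. Both transgene lines were labelled through the tag with a Halo dye at 50 nM and sorted by its fluorescence. The medium contained LIF, CHIR99021 and PD184352, so the pathway's ligand was supplied to the cultures. The series title names the electrostatic properties of disordered protein regions and their part in how transcription factors search for sites and open chromatin.

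Each line gave 1 library, so there was no replicate error against which to set a difference, and no p-value was computed. Intervals are Wilson 95% intervals. They cover counting error only, and regions near one another are not independent. Doxycycline dose, cell line and transgene differ together between the libraries and cannot be told apart. The dye and the sort are named only for the transgene lines, so in comparisons with Control they cannot be told apart from these either.

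Leukaemia inhibitory factor (LIF) keeps cultured mouse embryonic stem cells undifferentiated. It binds its receptor, Lifr, which pairs with gp130, the shared receptor chain encoded by Il6st. The kinase Jak1, held at the receptor, then phosphorylates Stat3, and phosphorylated Stat3 enters the nucleus and activates target genes. Among these targets are Socs3, a feedback inhibitor that blocks the receptor kinases, and Gbx2, a homeobox gene that can help to sustain self-renewal.

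The sequence just before each gene's start was taken from the RefSeq promoter table of GRCm38.p6, which covers 250 bases before to 50 bases after a start. All 6 genes were matched, Lifr with 2 listed starts and the others with 1. Both Lifr starts are printed because only the first lay under a peak, in all 3 lists, and the pair differed in CpG content. They cover chr15:7129322-7129571 and chr15:7140292-7140541 on the plus strand, 5′ to 3′, with each CpG in capitals.
Lifr start 1: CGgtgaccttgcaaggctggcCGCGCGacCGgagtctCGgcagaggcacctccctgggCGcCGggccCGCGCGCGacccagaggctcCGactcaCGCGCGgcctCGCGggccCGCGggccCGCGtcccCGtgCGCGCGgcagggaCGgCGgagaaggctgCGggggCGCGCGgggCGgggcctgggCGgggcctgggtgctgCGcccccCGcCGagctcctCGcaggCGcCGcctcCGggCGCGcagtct
Lifr start 2: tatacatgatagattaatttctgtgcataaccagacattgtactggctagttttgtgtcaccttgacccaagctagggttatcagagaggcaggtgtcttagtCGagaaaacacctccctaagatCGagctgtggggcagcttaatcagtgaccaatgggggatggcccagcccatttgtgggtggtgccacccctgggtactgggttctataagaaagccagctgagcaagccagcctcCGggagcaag
Counted over 300 bases, start 1 held 53 CpG and was 81.3% G or C, and start 2 held 4 CpG and was 53.3% G or C. Among all 32851 listed promoters, those with 4 to 7 CpG had a peak in all 3 lists in 13.0% of cases, and those with 21 to 67 CpG in 92.5%. The presence of a peak at the first Lifr start and its absence at the second were thus each on the side that most promoters of their CpG content took.

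The promoters of Socs3 and Stat3 are printed because, of the 6 genes' starts with a peak, they were those holding a match to a STAT or SOX motif that was searched. They cover chr11:117969367-117969616 (Socs3) and chr11:100939541-100939790 (Stat3), both printed on the minus strand, 5′ to 3′, with the matches in capitals.
Socs3: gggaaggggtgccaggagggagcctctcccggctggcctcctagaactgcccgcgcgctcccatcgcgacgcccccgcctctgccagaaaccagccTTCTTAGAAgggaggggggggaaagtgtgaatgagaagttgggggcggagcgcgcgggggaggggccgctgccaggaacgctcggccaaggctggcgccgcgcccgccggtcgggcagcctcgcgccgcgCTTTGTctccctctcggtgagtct
Stat3: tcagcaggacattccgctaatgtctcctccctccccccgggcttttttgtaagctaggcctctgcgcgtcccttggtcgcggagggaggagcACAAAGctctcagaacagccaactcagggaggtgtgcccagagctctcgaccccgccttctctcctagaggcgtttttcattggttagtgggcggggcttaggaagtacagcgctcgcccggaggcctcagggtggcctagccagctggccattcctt
The Socs3 promoter held TTCTTAGAA from -154 to -146 before the start, a match to the STAT letters TTCNNNGAA, and CTTTGT, a SOX motif, from -24 to -19. The Stat3 promoter held ACAAAG, which is CTTTGT on the other strand, from -158 to -153. The second Lifr start held CATTGT, the other SOX motif searched, from -215 to -210. Both strands were searched, and TTCNNNGAA also matches every TTCCNGGAA. Of all listed promoters, 8.30% held TTCNNNGAA, 1.15% TTCCNGGAA, 12.6% CATTGT, 18.7% CTTTGT and 1.74% the OCT motif ATGCAAAT. These are letter matches only, and neither TTCCNGGAA nor ATGCAAAT occurred in the promoters of the 6 genes.

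The Halo-Sox2 list held 88898 peaks, 67 of them near the 6 genes, the Halo-Sox2a list 83995 with 55, and the Control list 72638 with 44. Their median widths lay between 455 and 493 bp and their median scores between 85 and 149. The depth of the libraries is unknown, so the absence of a peak from a list can also mean a signal slightly below that list's cutoff. The score is the authors' value for each peak on a scale the sources used here do not state. It was therefore turned into a percentile, the share of the list's peaks with a lower score. Over the Sox2 gene, the highest peak stood at percentile 99.998 for Halo-Sox2a, 81.6 for Halo-Sox2 and 64.4 for Control. Reads from the gene and from a transgene carrying its sequence cannot be told apart here, so these values do not serve as a like check of both transgene labels. Of 5 stem cell markers in the promoter table, Zfp42 and Esrrb had a promoter peak in all 3 lists, Nanog in the Halo-Sox2a and Control lists, and Pou5f1 and Tdgf1 in none. Of 15 markers of fibroblasts, neural cells, endoderm, mesoderm and trophoblast, 9 had one in all 3 lists and 2, Afp and Tbx6, in none. Among all protein-coding genes in the promoter table, 58.9% had one in all 3 lists. A promoter peak therefore did not separate the labelled cell type from the others, and the part of other cells in the results was not tested.

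All 6 genes had a peak over a listed promoter in all 3 lists, so none of their listed promoters differed by presence. The Lifr gene body begins at chr15:7090610, upstream of both its listed starts, and that end was not among the promoters examined. Of 17491 protein-coding genes in the promoter table, 58.9% had a promoter peak in all 3. Promoter percentiles were highest at Jak1 and Stat3, which lay above percentile 91 in each list, and lowest at Lifr. Their order below Jak1 and Stat3 differed between the lists, and without replicates no neighbours in it could be shown to differ.

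At the receptor genes, the Lifr promoter peak stood at percentile 40.3 with Halo-Sox2, 61.7 with Halo-Sox2a and 67.4 in Control. The Il6st promoter took the opposite order, at 84.1, 77.6 and 70.9. The ligand's receptor chain was thus lowest in the Halo-Sox2 list and the shared chain highest there. At the kinase gene Jak1 the percentiles were 94.4, 95.6 and 96.1, and at Stat3 they were 91.4, 94.3 and 96.9, again in the order Halo-Sox2, Halo-Sox2a and Control. Both were high and close together, lowest in the Halo-Sox2 list. At the targets, Socs3 stood at 80.6, 81.0 and 87.9, and Gbx2 at 62.0, 80.3 and 70.3. Socs3 was lower in both transgene lists than in the Control list, whereas Gbx2 was highest in the Halo-Sox2a list.

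**Figure D1:**
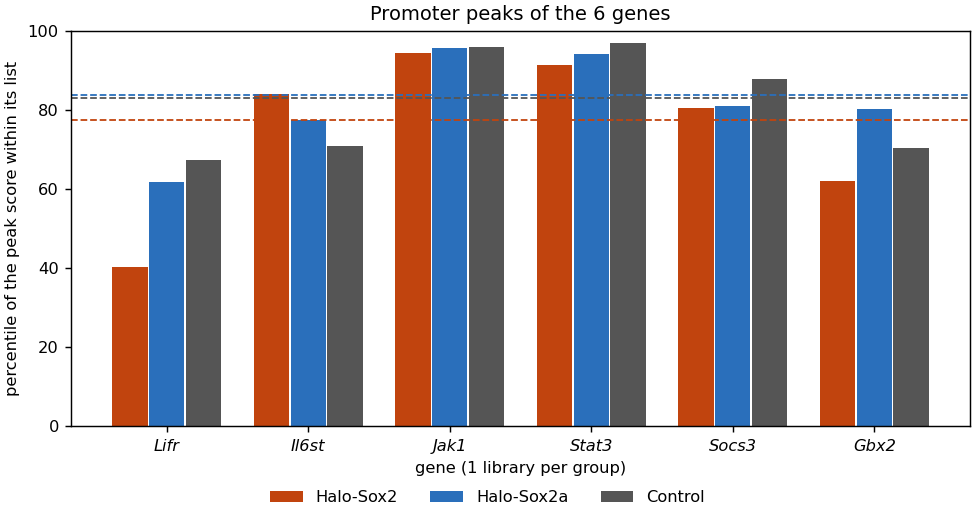
Percentile of the promoter peak's score within its list (vertical axis, 0 to 100) for each of the 6 genes, with 1 bar per library and no error bars because each group had 1 library; dashed lines are the medians of protein-coding promoters with a peak in that list. Lifr runs from 40.3 in Halo-Sox2 to 67.4 in Control, Il6st from 84.1 down to 70.9, and Jak1 and Stat3 stay above 91.

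These differences were read against all protein-coding promoters with a peak in both lists of a pair. Halo-Sox2 percentiles were lower than Control percentiles at 71.0% of 10404 promoters, with a median difference of -3.81 points, and at 5 of the 6 genes. The Lifr difference of -27.1 points was matched or exceeded downward by 5.44% of the promoters. The Il6st difference of 13.2 points was matched or exceeded upward by 5.97%. The receptor pair thus lay toward opposite ends of the distribution, while the differences of Jak1 (-1.64), Stat3 (-5.49), Socs3 (-7.32) and Gbx2 (-8.25) were nearer its middle. Halo-Sox2a percentiles were lower than Control percentiles at 47.3% of 10541 promoters and at 4 of the 6 genes. Their differences ran from -6.91 points at Socs3 to 10.0 points at Gbx2. Between the transgene lists, Halo-Sox2 was lower at 75.0% of 10515 promoters and at 5 of the 6 genes, with Il6st the exception at 6.53 points higher. Comparisons with the Control list share that library.

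Around Lifr the number of regions differed most between lists. The gene lies on the plus strand at chr15:7090610-7197489 (mm10 coordinates), and its window held 21 regions, 18 with a Halo-Sox2 peak, 11 with a Halo-Sox2a peak and 8 with a Control peak. Halo-Sox2 peaks covered 11202 bp of the window, Halo-Sox2a peaks 7105 bp and Control peaks 5284 bp. Over the genome the order was the same, with 87940, 83121 and 71194 regions and 51.2, 49.1 and 39.9 Mb covered. Of the 21 regions, 7 were held by all 3 lists and 9 (42.9%, 24.5 to 63.5%) by the Halo-Sox2 list alone, against 24.3% Halo-Sox2 only among all 130664 regions. That background lies just under the interval's lower end, and Lifr was 1 of 6 genes looked at.

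The Halo-Sox2 only regions at Lifr were spread over both sides of the gene and inside it. Their percentiles ran from 10.1 to 66.3 with a median of 33.4, and 3 of the 9 were at or above percentile 50. The highest was at chr15:7119777-7120365, inside the gene body and 9.50 kb upstream of the first listed start.

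Regions present in all lists at Lifr also differed in rank. The region at chr15:7081693-7082465, outside the gene and 47.5 kb upstream of the first start, had the highest mean percentile near Lifr and stood at 73.4, 94.6 and 88.9 (always in the order Halo-Sox2, Halo-Sox2a, Control). A region of 2213 bp at chr15:7115064-7117276, in the gene body 13.4 kb upstream of that start, stood at 56.5, 80.5 and 89.2. Both were lowest in the Halo-Sox2 list, as was the promoter. The region at chr15:7134074-7134893, in the gene body 4.91 kb downstream, went the other way with 83.6, 34.8 and 60.3. The next region toward the start, chr15:7132762-7133145, stood at 53.7, 87.9 and 78.9, so neighbouring regions at this start took opposite orders. Outside the gene, just before the 5′ end of its body, chr15:7089136-7090115 was held by both transgene lists and not by Control. It stood at percentile 80.0 in Halo-Sox2 and 15.1 in Halo-Sox2a. That end is not a listed start, and the region was chosen for mention after its values were seen.

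Il6st lies on the plus strand at chr13:112464070-112506860, with 13 regions in its window. The Halo-Sox2 list held 12 of them and the other lists 6 each. All 3 lists held 5, and 6 (46.2%, 23.2 to 70.9%) were in the Halo-Sox2 list alone. Over all regions that share was 24.3%, which lies within the interval. The highest-ranked regions lay before the gene, at percentiles within 5 points of each other. The region at chr13:112439340-112441072, 23.9 kb upstream and outside any listed gene, stood at 93.7, 98.2 and 93.9, and the region at chr13:112462150-112463130, 1.43 kb upstream, at 94.6, 95.1 and 94.5. Each outranked the Il6st promoter itself in every list.

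The Halo-Sox2 only regions of Il6st had percentiles from 0.999 to 74.9. The highest, at chr13:112516164-112516658, lay past the gene's end, 52.3 kb downstream of the start, and was the highest of all 21 Halo-Sox2 only regions near the 6 genes. The third of those by percentile, chr13:112495344-112495921 in the Il6st gene body, stood at 60.3. Inside the gene body, chr13:112486470-112487155 was in all 3 lists at percentiles 0.999, 52.9 and 6.49, far higher in the Halo-Sox2a list than in the others. Its Halo-Sox2 peak, chr13:112486842-112487155, overlapped the other peaks only at its edge. With an overlap of at least 50% of the shorter peak required, all 3 lists held 4 regions at Il6st. A Control only region at chr13:112529930-112530274, inside the neighbouring cytokine receptor gene Il31ra, stood at 62.2 and was the highest of the 4 Control only regions.

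Jak1 had the fewest regions, 6 in the widest of the windows around chr4:101151974-101265282 (minus strand). All 3 lists held 3 (50.0%, 18.8 to 81.2%), against 32.1% of all regions. The Halo-Sox2 list had none of its own, against 24.3% of all regions, with an interval reaching 39.0%. The promoter region, chr4:101264365-101265496, had the highest mean percentile of all 80 regions. A region at chr4:101167775-101168618, inside the gene body, was held by both transgene lists at 53.8 and 68.9 and not by Control, and so was chr4:101300512-101301079, upstream of the gene, at 46.8 and 68.4. At chr4:101146120-101146604, inside the neighbouring gene Raver2, the percentiles were 14.0, 66.4 and 27.3, with Halo-Sox2a again well above the other lists.

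Stat3 lies on the minus strand at chr11:100886806-100939594 beside its relatives Stat5a and Stat5b, and its window held 9 regions. All 3 lists held 5 (55.6%, 26.7 to 81.1%), against 32.1% of all regions. Both transgene lists without Control held 3 (33.3%, 12.1 to 64.6%), against 8.95%, and Control alone held 1 (11.1%, against 10.2%). Stat3 was 1 of 6 genes looked at. At each of the 5 shared regions both transgene lists stood below Control. Among all regions of all 3 lists in the genome, Halo-Sox2 stood below Control at 63.8% and Halo-Sox2a at 42.4%. Most of the 5 lay over listed promoters. At protein-coding promoters with a peak in both lists, the corresponding shares were 71.0% and 47.3%. At the Stat3 promoter region, chr11:100939056-100940156, the percentiles have been given above. At chr11:100969502-100970967, the promoter of Cavin1, which encodes a caveolar coat protein, they were 29.5, 40.3 and 66.7. At chr11:100983247-100983805, 44.0 kb upstream of Stat3, they were 22.8, 56.2 and 68.7. The promoters of Stat5b (30.4, 44.8 and 50.2) and Stat5a (46.5, 15.4 and 54.4) completed the 5. Halo-Sox2 was lowest at all of them except the Stat5a promoter, where Halo-Sox2a was lowest.

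The 3 regions at Stat3 without a Control peak differed in which transgene list ranked them higher. The region at chr11:100951867-100952515, 12.7 kb upstream and outside any listed gene, stood at 87.9 for Halo-Sox2 and at 9.50 for Halo-Sox2a. It had the highest Halo-Sox2 percentile of any region near the 6 genes that Control lacked, and it was chosen for mention after its values were seen. The region at chr11:100957371-100957912, in the gene body of Cavin1, had the opposite order at 51.1 and 66.6, as did the one inside Stat3 at 40.9 and 61.9.

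Socs3 is a short gene on the minus strand at chr11:117966079-117970336, and 18 regions lay in its window. The Halo-Sox2 and Halo-Sox2a lists held 14 each and Control 9. All 3 lists held 7 (38.9%, against 32.1% of all regions) and both transgene lists alone 3 (16.7%, against 8.95%). Halo-Sox2 alone held 4 (22.2%, against 24.3%) and Halo-Sox2a alone 2 (11.1%, against 12.2%). Each of these differences from all regions was within the counting error. The promoter region, chr11:117968868-117970061, had the highest mean percentile in the window. A region at chr11:117963017-117964120, 5.80 kb downstream of the start and past the gene's end, stood at 69.0, 85.9 and 68.4, and one at chr11:117974793-117976809, 6.44 kb upstream, at 75.9, 66.1 and 69.9. These flanking regions had no common order of the lists. The 4 Halo-Sox2 only regions ran from 5.73 to 45.8. The 2 regions of Halo-Sox2a and Control without Halo-Sox2 included chr11:117995898-117996562, inside Pgs1, a phospholipid synthesis gene, which stood at 52.9 in Halo-Sox2a and 80.0 in Control. That was the highest Control percentile of any region near the 6 genes that the Halo-Sox2 list lacked.

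Gbx2, on the minus strand at chr1:89927962-89931176, had 13 regions, and each list held 9 of them. All 3 lists held 6 (46.2%, 23.2 to 70.9%), against 32.1% of all regions, which lies within the interval. The promoter region was chr1:89930347-89931639. The regions beside it gave the largest upward differences of Halo-Sox2 from Control near the 6 genes. At chr1:89934671-89936208, 4.26 kb upstream, the percentiles were 69.3, 13.5 and 12.9, so only the Halo-Sox2 library ranked it high. At chr1:89922942-89923568, 7.92 kb downstream of the start, they were 63.0, 57.6 and 19.7, with both transgene lists well above Control. At chr1:89927023-89927472, just past the gene's end, they were 9.75, 44.6 and 11.5, higher in Halo-Sox2a than in the other lists but below the middle of that list. A region of 1333 bp at chr1:89950213-89951545, 19.7 kb upstream, was in the Halo-Sox2 list alone at percentile 58.5.

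**Figure D2:**
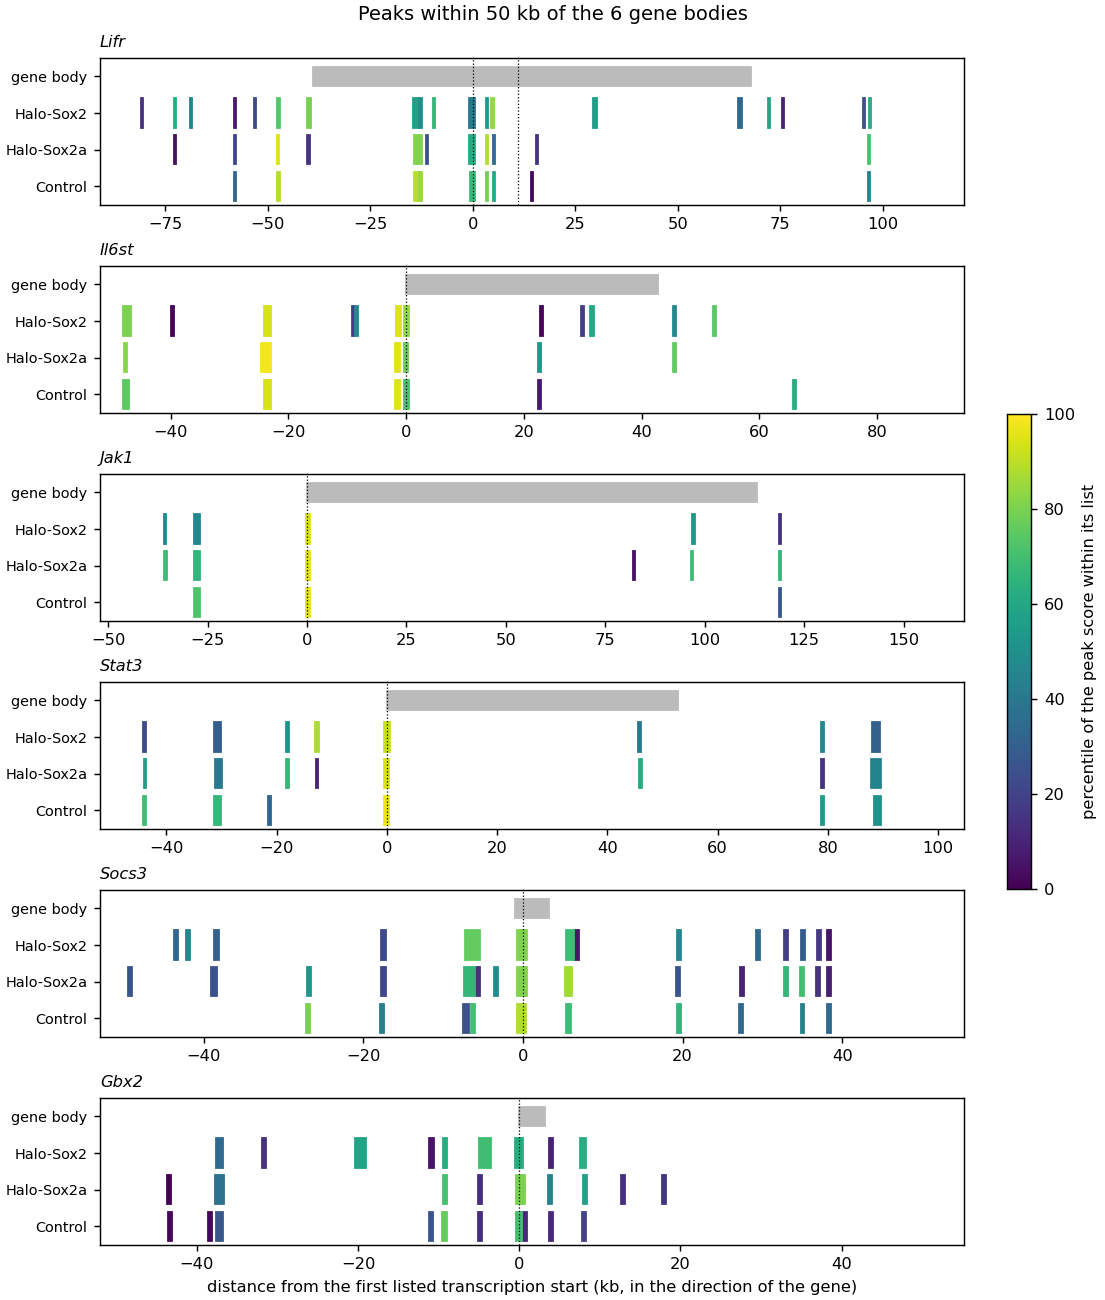
Peaks within 50 kb of each gene body, by list (rows), against the distance in kb from the first listed start in the direction of the gene; the colour gives the percentile of the score within its list, grey bars are gene bodies, dotted lines are listed starts, and peaks under 0.5 kb are drawn 0.5 kb wide. The Halo-Sox2 row at Lifr and Il6st holds more peaks than the other rows, and every first start lies under a peak in all 3 rows.

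Summed over the 6 genes, 33 of the 80 regions (41.2%, 31.1 to 52.2%) were held by all 3 lists, against 32.1% of all regions. The Halo-Sox2 list alone held 21 (26.2%, against 24.3%), and both transgene lists without Control held 11 (13.8%, against 8.95%). The Halo-Sox2a list alone held 7 (8.75%, against 12.2%) and Control alone 4 (5.00%, against 10.2%). Halo-Sox2 and Control without Halo-Sox2a held 1 (1.25%, against 1.90%), and Halo-Sox2a and Control without Halo-Sox2 held 3 (3.75%, against 10.3%).

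Pair by pair, Halo-Sox2 held 32 of the 73 regions found in it or in Control without a Control peak (43.8%, 33.0 to 55.2%), near the 37.9% of all regions. Control held 7 of the 73 without a Halo-Sox2 peak (9.59%, 4.72 to 18.5%), where all regions gave 23.3%, above the interval. Halo-Sox2a held 18 of 59 without Control (30.5%, 20.3 to 43.1%, against 28.0%), and Control held 5 of 59 without Halo-Sox2a (8.47%, 3.67 to 18.4%, against 15.9%). The last share was 14.3% with lists of equal size, against 20.9% of all regions, and 17.1% among peaks at or above percentile 50, against 15.6%. In the percentile 50 setting lower-ranked peaks were dropped, so a region with only such a peak in a list counted as lacking it. So Control regions near these genes were missing from the Halo-Sox2 list in a smaller share than over the genome, by more than the counting error, while the shares of transgene regions without Control were within it. Between the transgene lists, Halo-Sox2 held 22 of 76 without Halo-Sox2a (28.9%, against 29.2%), and Halo-Sox2a held 10 of 76 without Halo-Sox2 (13.2%, 7.31 to 22.6%, against 25.1%). The last was also below the genome by more than the counting error. With lists of equal size it was 18.5% (10.9 to 29.6%), against 27.1% of all regions, so the difference was within the counting error. Among peaks at or above percentile 50 it was 27.5%, against 25.2%. With lists of equal size, Control regions without a Halo-Sox2 peak made up 19.7% (11.9 to 30.8%) near the 6 genes and 30.8% of all regions. Among peaks at or above percentile 50 they made up 23.7% (13.0 to 39.2%) and 24.5%. The difference from the genome was not seen in that setting, whose shares reflect rank as well as absence.

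**Figure D3:**
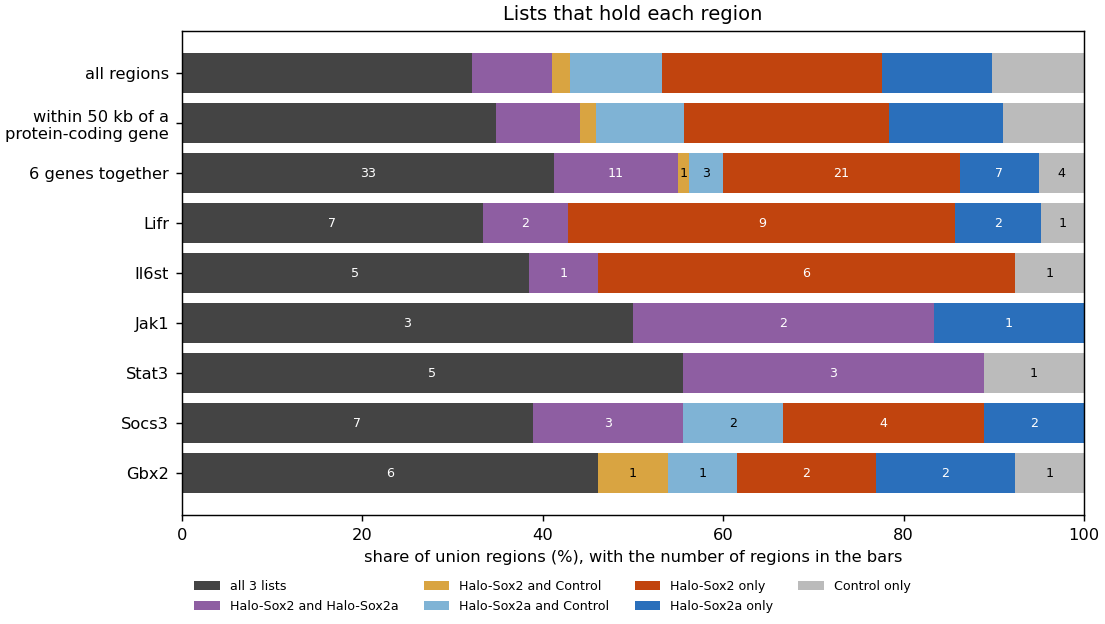
Share of regions (horizontal axis, percent) held by each combination of lists, for all regions, for those within 50 kb of a protein-coding gene, for the 6 genes together and for each gene, with region counts printed in the bars of the gene rows. Halo-Sox2 only regions make up 9 of 21 at Lifr, 6 of 13 at Il6st, none at Jak1 or Stat3, and 24.3% of all regions.

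Where all 3 lists held a region, Halo-Sox2 stood below Control at 23 of the 33 regions, against 63.8% of the 41984 such regions in the genome. The median difference was -7.89 points, and -5.11 over all such regions. It was lower by more than 20 points at 9 (27.3%, against 24.6%) and higher by more than 20 points at 3 (9.09%, against 12.9%). Halo-Sox2a stood below Control at 17 of the 33, against 42.4%, with a median of -0.44 and of 1.81 over all such regions. It was lower by more than 20 points at 6 (18.2%, against 8.46%) and higher by more than 20 points at 6 (18.2%, against 17.0%). Halo-Sox2 stood below Halo-Sox2a at 25 of the 33, against 71.1%, with a median of -8.65 and of -7.19 over all such regions. Over the 34 regions held by Halo-Sox2 and Control, whatever the third list held, the median was -8.07 points (quartiles -20.7 and 0.44). It was -1.64 over the 15 such regions left among peaks at or above percentile 50, -13.7 without Il6st and -13.3 without Gbx2, so its sign held and its size did not. Over the 36 held by Halo-Sox2a and Control it was -2.14 (quartiles -11.7 and 9.18), and it changed sign when Stat3 or Socs3 was left out (0.57 in both cases).

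The genes differed among themselves in these shared regions. Halo-Sox2 stood below Control at all 5 regions of Stat3, all 3 of Jak1, 5 of 7 at Lifr, 5 of 7 at Socs3, 2 of 5 at Il6st and 3 of 6 at Gbx2. Halo-Sox2a stood above Control at all 5 regions of Il6st and 5 of 6 at Gbx2, and below it at all 5 of Stat3. Of the 5 regions at Stat3, 3 are the promoters of Stat5a, Stat5b and Cavin1. These counts leave out the regions without a Control peak, of which Halo-Sox2a had 3 at Stat3. Halo-Sox2a peaks covered 6391 bp of that window against 4601 bp in Control, and 49.1 Mb against 39.9 Mb over the genome.

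**Figure D4:**
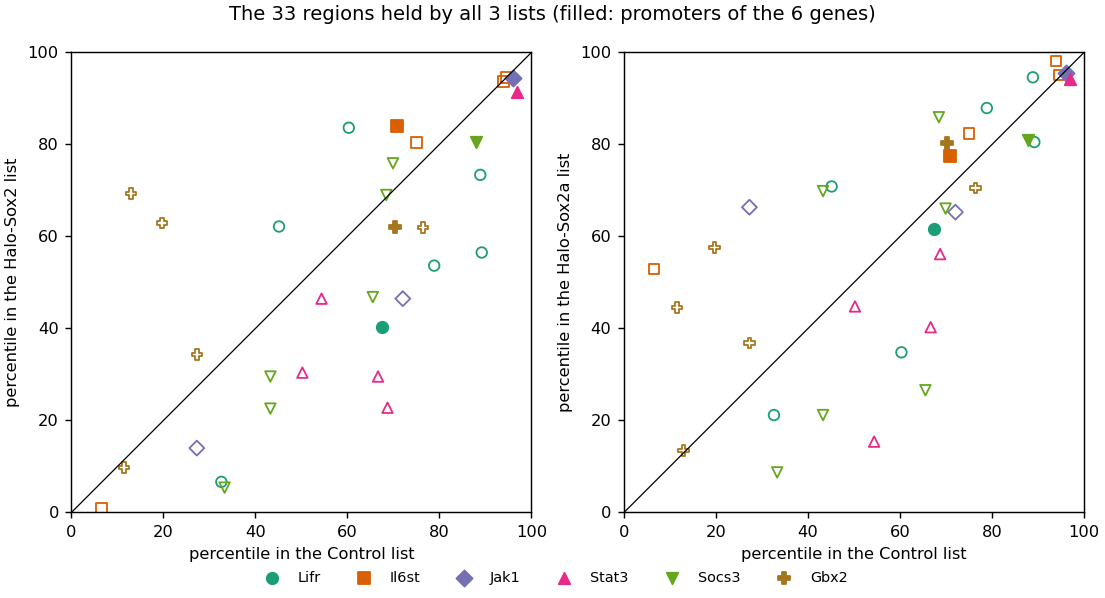
Percentile in the Halo-Sox2 list (left) and the Halo-Sox2a list (right) against the percentile in the Control list, for the 33 regions held by all 3 lists; each point is a region, filled at the promoters of the 6 genes, and the line marks equal percentiles. In the left panel 23 of 33 points lie under the line, and in the right panel 17 do.

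Presence varied only away from listed promoters here. All 10 regions over a listed promoter near these genes, 6 of the members and those of Stat5a, Stat5b, Cavin1 and Pgs1, were held by all 3 lists, as were 86.9% of the 12813 regions over listed promoters in the genome. Of the 70 regions away from listed promoters, 23 (32.9%) were held by all 3, against 26.2% of such regions in the genome. All 47 regions missing from at least 1 list thus lay away from listed promoters. They include chr15:7089136-7090115, just before the 5′ end of the Lifr gene body, which is not a listed start. Regions of all 3 lists had a median width of 885 bp, regions of both transgene lists 542 bp, and those of Halo-Sox2 alone 344 bp, with 843, 565 and 377 bp in the genome. Placement in an exon, intron or untranslated region was not analysed here.

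Of 29 other genes of the pathway, 23 were matched in the promoter table, and the promoters of Clcf1, Osm, Socs2, Ptpn2, Klf5 and Myc were not analysed here. A promoter peak was present in all 3 lists at 17 of the 23 and in none at the ligand genes Lif and Cntf, the receptor gene Cntfr and the coactivator gene Bcl3. At the 17, Halo-Sox2 was lower than Control at 11, near the 71.0% of all promoters, and Halo-Sox2a was lower than Control at 4, where 47.3% of all promoters were. The ligand gene Ctf1 stood at 2.92, 52.7 and 37.8, the lowest Halo-Sox2 percentile of the pathway's promoters. The kinase gene Tyk2 stood at 96.5, 98.5 and 98.1, the highest in every list. Among receptors, Il11ra1 had 79.3, 82.1 and 70.7 and Osmr 56.5, 63.0 and 62.2, so only the first was above Control in both transgene lists.

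Among kinases, Jak2 stood at 49.4, 21.2 and 25.7, highest in the Halo-Sox2 list as Il6st was, but with Halo-Sox2a below Control. Among inhibitors, Cish stood at 92.1, 88.8 and 86.9, and the phosphatase gene Ptpn11 at 42.8, 63.0 and 53.6. Among targets, Halo-Sox2a stood above Control at all 4 with a peak in each list, Klf4, Tfcp2l1, Pim1 and Pim3, and Halo-Sox2 stood above it at Tfcp2l1 and Pim1. Tfcp2l1, a transcription factor of the naive state, had 68.6, 81.2 and 58.3. Within 50 kb of the 29 genes lay 373 regions, of which 45.3% were in all 3 lists and 15.5% in the Halo-Sox2 list alone, where all regions gave 32.1% and 24.3%.

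By the distance between promoter percentiles over the 3 lists, the pathway gene nearest to Lifr among the 17 was Ptpn11 (14.2 points). It was Il11ra1 for Il6st (6.60), Tyk2 for both Jak1 (4.04) and Stat3 (6.67), Pias3 for Socs3 (10.5) and Pim3 for Gbx2 (10.3). This is a description over 3 libraries.

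Peaks also lay just beyond the 50 kb limit. At Il6st the outermost peak counted lay 47.6 kb from the gene at percentile 82.4, and the nearest left out 51.0 kb away at 77.2, both in the Halo-Sox2a list. At Socs3 the corresponding peaks lay at 48.2 kb (26.6) and 51.5 kb (4.48), also in the Halo-Sox2a list. At Gbx2 the outermost peak counted, 43.5 kb away, had the lowest score of the Halo-Sox2a list, and a Control peak left out at 51.2 kb stood at 85.8, above every Gbx2 peak that was counted.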

How the data were processed

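Open chromatin was measured by ATAC-seq in 3 libraries, 1 each of Halo-Sox2, Halo-Sox2a and Control cells, grouped by the labels. About 50000 cells entered each transposition and reads were pairs of 75 bases, per the labels' protocols. The deposited files are peak lists made by the authors, 1 per library, with a whole-number score per peak whose scale is not given in the sources used here. STAR, SAMtools, MACS2 3.0.0a7, MACS3 and deepTools 3.3.0 and the build mm10 are named, without roles or settings, per the submitters' processing notes. Read shifting for the transposase is not given in the sources used here. A threshold or depth that differed between libraries would move the number of peaks called.

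Positions were made 1-based. Peaks overlapping by at least 1 bp were merged into regions, and a region belonged to a gene when at least 1 of its peaks met the 50 kb rule. Each list was ranked on its own, with the highest peak standing for a region. Gene bodies came from a RefSeq table of GRCm38.p6, starts and sequences from a RefSeq promoter table of the same build. Python 3.11.15, pandas 2.3.3, numpy 2.4.6, scipy 1.17.1, statsmodels 0.14.6 and matplotlib 3.10.9 were used, and the classing of regions was tested on simulated lists. No test was run, since each group had 1 library.

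Named regions are the promoter and the highest by mean percentile of each gene, the 3 highest in each class of presence, and the 3 largest differences of each transgene list from Control in each direction, of which the text gives those that carry a comparison. Regions named outside this rule were picked after their values were seen. The members and lists were chosen with earlier results of these data known. One item of the pathway list is not reported here. Alternatives covered the overlap, the distance, lists of equal size, higher-ranked peaks and leaving out each gene.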

Additional observations from a re-analysis of the deposited data

How the results depend on the processing

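No paired analysis was possible because each group had 1 library. Of 141 values recomputed for the comparisons, 3 changed sign and 15 moved, that is, a share or median left the 95% interval of its reported value or a count changed by over 1.5 times. The intervals are wide, so values among the other 123 also shifted. Control regions without a Halo-Sox2a peak (8.47%) made up 14.3% with lists of equal size and 17.1% at percentile 50 or above. In the percentile 50 setting a region with only a lower-ranked peak in a list counted as lacking it. Within 1 kb of a start, each of the 6 shares of regions missing from 1 list of a pair was 0, of 6 regions, which the counting interval extends to 39.0%. The share of Control regions without a Halo-Sox2 peak (9.59%) was 19.7% with lists of equal size and 2.33% within 20 kb. Among peaks at or above percentile 50 it was 23.7%. The share of Halo-Sox2a regions without Halo-Sox2 (13.2%) was 27.5% there, with lower-ranked Halo-Sox2 peaks counted as absent. The cause was not tested. The median difference of Halo-Sox2a from Control (-2.14 points) became 0.0652 within 20 kb, and 0.570 both without Stat3 and without Socs3, so its sign rests on single genes. Among peaks at or above percentile 50, regions in all 3 lists numbered 3 at Lifr, 1 at Jak1, 1 at Stat3, 3 at Socs3 and 2 at Gbx2, since fewer peaks entered. Of 144 counts of a single class at a single gene, 42 moved. The unknown depth limits every statement that a peak was missing.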
